A study of Gallus gallus with 4 samples.

Results

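HIF1α-DNA binding complexes nearest to genes for mitochondrial respiration, transport and translation were taken from a CUT&RUN map of primary lens cells. A complex was included when a gene symbol of its nearest transcription start site (TSS) began with the letters of a respiratory chain, ATP synthase, protein import, mitochondrial ribosome, SLC25 carrier, mitochondrial DNA maintenance, fusion and fission, calcium uniporter, CHCHD, matrix protease or PPARGC1 gene, at any distance. This gave 78 of 8375 peaks, nearest to 56 genes. The whole list held 4869 different symbol entries, where an entry with several symbols counts once. The choice of peaks used names and no measured value, but the families were chosen with earlier results of these data known. Every symbol found belongs to a gene of these families, and no unrelated gene with the same letters, such as MFNG, was among them. At 10 of the 78 peaks (12.8%, against 6.97% of all peaks) the list gave other symbols as well. Which symbol the start site of such a peak belongs to was not determined.

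The cells were primary lens cells of White leghorn chick embryos at embryonic day 10, exposed for 4 h to 1 mM dimethyloxalylglycine (DMOG), which inhibits the prolyl hydroxylases that mark HIF1α for degradation. CUT&RUN uses an antibody to direct a nuclease to a bound protein and sequences the short fragments that are released. There were 2 libraries with an antibody to HIF1α and 2 with a control immunoglobulin (IgG), from 2 pools of 500000 cells that were each split between the antibodies. All 4 libraries came from DMOG-treated cells, so that HIF1α is compared with IgG and not treated with untreated cells. The authors pooled the libraries of each antibody before they called peaks with MACS2. Each value therefore has no replicate error, library depths are not known, and the intervals given here cover counting error alone. The cell type cannot be checked in a list of binding sites.

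Mitochondria make most of the ATP of a cell through the respiratory chain, which passes electrons from complex I and complex II through complex III and cytochrome c to oxygen at complex IV and drives the ATP synthase. Most of its subunits are encoded in the nucleus, imported through the TOM and TIM channels and assembled with the few made on mitochondrial ribosomes. In mammalian cells HIF1 is known to lower the use of oxygen by mitochondria, and among its targets there are LONP1, a matrix protease, and BNIP3L, a receptor for the removal of mitochondria. Lens fiber cells lose their mitochondria as they differentiate.

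The strongest of these complexes were near MRPL14, MRPL48, NDUFS7 and LONP1, but most were as weak as the rest of the list. The pileup counts the HIF1α fragments that cover the summit of a peak. Its median was 9, with a range of 7 to 22, against a median of 9 over all 8375 peaks. Fold enrichment, which is the pileup plus 1 over the background plus 1, had a median of 4.00 (95% interval of the median 3.92 to 4.35) and a range of 2.86 to 10.0. The median of all peaks was 3.92. The −log10 q of peak calling had a median of 2.28 in both sets. A −log10 q of at least 3 was reached by 20 of the 78 peaks (25.6%, Wilson 95% confidence interval 17.3 to 36.3), close to the 26.5% of all peaks that reached it.

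The background of a peak came from the IgG libraries near it, or from the mean over the genome where that was larger, and was never under 1.30 fragments. It was at that floor for 35 of the 78 peaks (44.9%), compared with 49.7% of all peaks. High IgG background, defined as more than 3 times the floor, was found at 1 of the 78 peaks (1.28%, 95% confidence interval 0.227 to 6.91), that of MRPS24, compared with 7.94% of all peaks. The share of all peaks lay above this interval. The share among peaks at named protein-coding genes was lower than that of all peaks and lay inside the interval. At the floor the pileup alone fixes the other values. There, 7 fragments gave 3.48-fold enrichment at a −log10 q of 1.38. Likewise 8 fragments gave 3.92 and 1.81, 9 gave 4.35 and 2.38, 10 gave 4.79 and 3.07, 11 gave 5.22 and 3.88, and 12 gave 5.66 and 4.76.

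How many fragments separated each peak from the calling threshold was computed from its own background. With 1 fragment fewer, 13 of the 78 peaks (16.7%, 95% confidence interval 10.0 to 26.5) would not have reached the lowest −log10 p of the list, compared with 19.3% of all peaks. A further 21 had 1 fragment to spare and 21 had 2 (26.9% each, against 24.4% and 23.1% of all peaks). Another 7 (8.97%, against 11.8% of all peaks) had 5 or more. They were both peaks of MRPL14 and a peak each at MRPL48, NDUFS7, LONP1, TOMM6 and MRPS6. The 95% Poisson interval of the pileup of the strongest peak, at MRPL14, was 13.8 to 33.3 and overlapped that of every other one of the 78. In fold enrichment its interval lay above those of 13 peaks, and no other member peak lay above any. Intervals of fold enrichment take the background as known and leave out its own counting error.

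**Figure D1:**
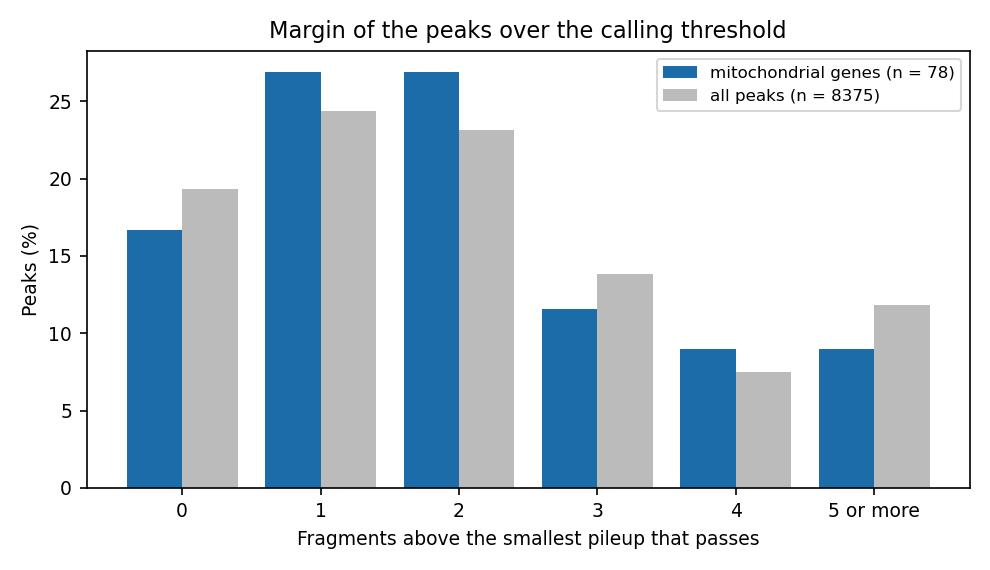
Percent of peaks (y axis) by the number of fragments above the smallest pileup that passes at the same background (x axis), for the 78 peaks at mitochondrial genes (blue bars) and all 8375 peaks (grey bars). In both sets most peaks have 2 fragments or fewer to spare, and 16.7% and 19.3% have none.

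Where the complexes lay was examined next. A distance of up to 3 kb, the limit the study used for a proximal promoter, was found for 19 of the 78 peaks (24.4%, 95% confidence interval 16.2 to 34.9), whereas 13.0% of all peaks and 13.8% of the 5828 peaks at named protein-coding genes lay that near. Within 1 kb there were 14 of 78 (17.9%) against 6.28% of all peaks, and beyond 100 kb there were 8 (10.3%) against 17.1%. The median distance was 10898 bp (95% interval of the median 7411 to 17543), compared with 23632 bp over all peaks. These differences were not tested. All of these shares rest on the deposited distances, and the paper itself reports 16.2% of all peaks within 3 kb. The last peak inside the limit of 3 kb was at 2612 bp from the TSS of MRPS24 and the next outside it at 3021 bp from that of MTFR2. Of the 19 proximal peaks, 10 were on microchromosomes (11 and above), which is 52.6% (95% confidence interval 31.7 to 72.7), as were 12 of the 59 others (20.3%). Among all peaks the shares were 37.8% within 3 kb and 21.7% beyond it, so the same order was seen in the whole list. The median fold enrichment was 4.04 within 3 kb and 3.97 beyond it.

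**Figure D2:**
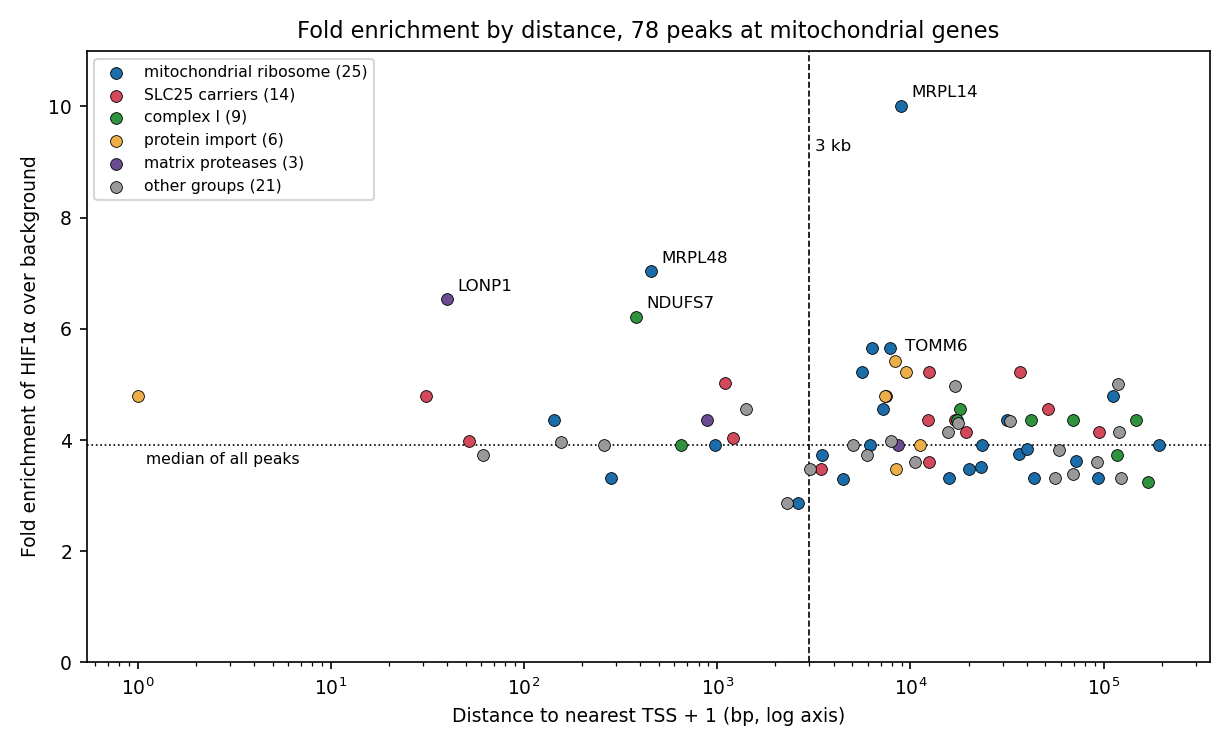
Fold enrichment of HIF1α over background (y axis) against the distance to the nearest TSS plus 1 bp (x axis, log scale) for the 78 peaks, coloured by functional group with the number of peaks in brackets. The dashed line marks 3 kb and the dotted line the median of all peaks, 3.92, and the highest point is MRPL14 at 8972 bp.

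Counted by gene, the picture was different. Of 260 nuclear genes of these families in a RefSeq gene table, 56 (21.5%, 95% confidence interval 17.0 to 26.9) were nearest to a peak at any distance, compared with 25.6% of 14344 named protein-coding genes. A peak within 10 kb was found for 33 (12.7%, against 12.1% of all genes) and within 3 kb for 17 (6.54%, 95% confidence interval 4.12 to 10.2, against 5.62%). These shares are near the background. The share of proximal peaks was thus above that of all peaks, while the share of genes with a proximal peak was near that of all genes. Peaks numbered 1 at 40 genes, 2 at 11 genes, 3 at 4 genes and 4 at NDUFA4.

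**Figure D3:**
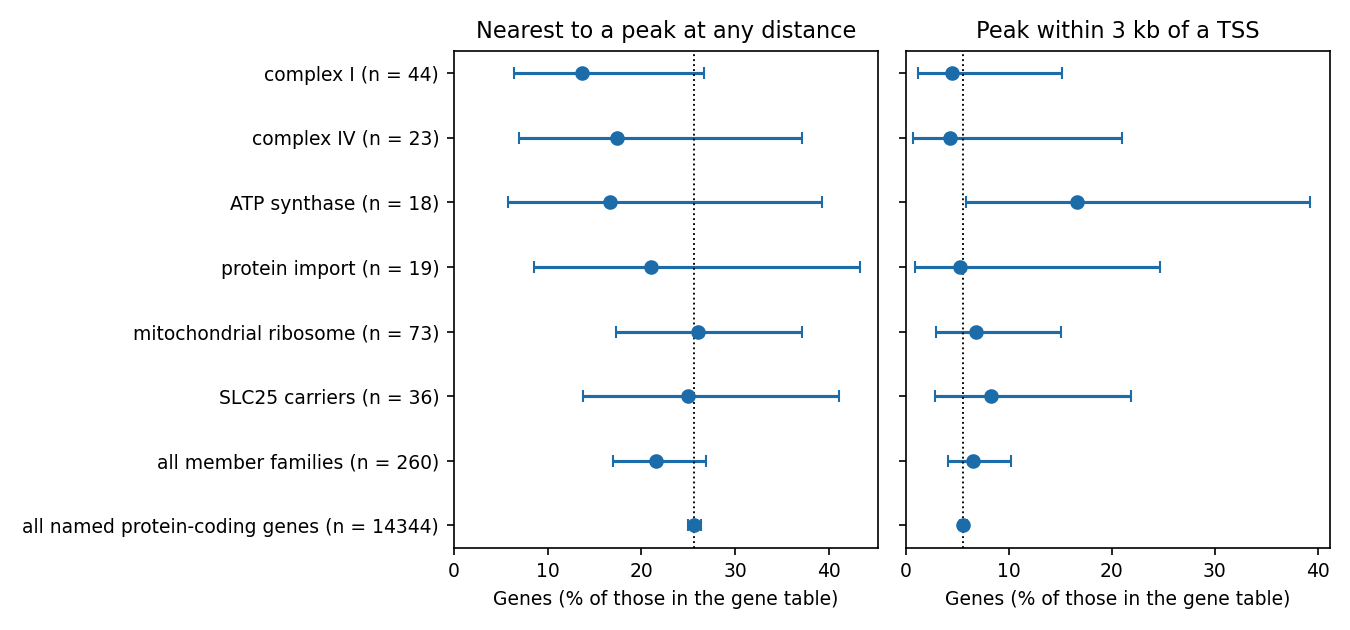
Percent of the genes of each family (y axis, families of at least 18 genes, with n in the gene table) that were nearest to a peak at any distance (left) or held a peak within 3 kb of the start site (right), with Wilson 95% confidence intervals as bars. The dotted lines mark all named protein-coding genes, 25.6% and 5.62%, which lie within the interval of every family shown except ATP synthase on the right (5.84 to 39.2). Families were grouped by gene name, with NDUFA4 under complex I.

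LONP1 encodes an ATP-dependent protease that degrades damaged and surplus proteins of the mitochondrial matrix. It had 3 peaks on chromosome 28, all with the background at the floor. The strongest (790432 to 790548) lay 39 bp off the start site, with 14 fragments (95% interval 7.65 to 23.5), 6.53-fold enrichment (95% interval 3.77 to 10.7), a −log10 q of 6.70 and 7 fragments to spare. A peak from 789304 to 789505 was at 888 bp with 9 fragments, and a peak from 799014 to 799158 was at 8621 bp with 8 fragments. The distances of all 3 fit a start site at position 790393, so that the peak at 888 bp lay on the side of lower coordinates and the other two on the opposite side. The Poisson intervals of the 3 pileups overlapped. In rank by −log10 q, the peak at the start site was 294 of 8375. The genes on either side of LONP1 in the GRCg7b assembly are RPL36 and SLC1A6.

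Respiratory chain genes were examined by complex, as grouped by gene name. NDUFA4 was therefore counted in complex I. For complex I, 6 of 44 genes (13.6%, 95% confidence interval 6.40 to 26.7, against 25.6% of all genes) were nearest to 9 peaks and 2 genes (4.55%, against 5.62%) had a peak within 3 kb. Both intervals, with NDUFA4 counted, contain the share of all genes. Shares without NDUFA4 were not computed. NDUFS7, an iron-sulfur subunit, had a peak on chromosome 28 (3266308 to 3266484), 377 bp from the TSS, with 17 fragments (95% interval 9.90 to 27.2) over 1.89 expected from background, or 6.22-fold enrichment at a −log10 q of 7.31. This was the highest pileup among the 19 proximal peaks of the 78. At NDUFAF6, an assembly factor, a peak on chromosome 2 (126323074 to 126323191) lay 651 bp from the TSS with 8 fragments at the floor. The others were distal. Subunit NDUFB1 and assembly factor NDUFAF1 had a peak each, with 9 fragments, at 42001 and 17344 bp. The peak of subunit NDUFA12, at 18005 bp with 11 fragments, also carried the symbol NR2C1. NDUFA4, named as a complex I gene and now known as a subunit of complex IV, was the gene with the most peaks, and all 4 were far from it, at 69039 to 168990 bp on chromosome 2, with pileups of 8 or 9.

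Complex II, which oxidizes succinate, had 0 of 8 genes nearest to a peak, with an upper bound of 32.4% that lies above the 25.6% of all genes. For complex III and cytochrome c it was 1 of 9 (11.1%, 95% confidence interval 1.99 to 43.5), UQCRFS1, the Rieske iron-sulfur protein, whose peak was at 55972 bp with 8 fragments, 3.32-fold enrichment and no fragment to spare. Complex IV, counted without NDUFA4, had 4 of 23 genes with a peak each (17.4%, 95% confidence interval 6.98 to 37.1). Within 3 kb there was a peak at 1 of the 23 genes (4.35%, against 5.62% of all genes). COX7A2, a small subunit, had the nearest, on chromosome 3 (80789103 to 80789215), at 1407 bp with 10 fragments, or 4.56-fold enrichment at a −log10 q of 2.87. The subunit COX7C and the assembly factors COX16 and COX18 had peaks at 15569, 10619 and 58993 bp with pileups of 9, 9 and 8. At each of these 4 genes the lower bound of the pileup was under 5 fragments.

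ATP synthase genes, as grouped by gene name, were nearest to 3 peaks, and all were within 3 kb of the TSS. That is 3 of 18 genes (16.7%, 95% confidence interval 5.84 to 39.2, against 5.62% of all genes). The 18 include ATP5SL, and the roles of those without a peak were not checked. ATP5PB, a peripheral stalk subunit, had a peak on chromosome 26 (3216516 to 3216650) at 257 bp with 8 fragments at the floor. That peak also carried the symbol of an unnamed gene. A peak on chromosome 33 (6894918 to 6895023), at 155 bp with 9 fragments and 3.96-fold enrichment, carried 4 symbols, of which ATP5F1B, the catalytic beta subunit, is the last, after PTGES3, NACA and RF00273. It cannot be assigned to ATP5F1B alone. ATP5S, a coupling factor, had a peak on chromosome 5 (57936870 to 57937026) at 2298 bp with 12 fragments over 3.54 expected from background, which gave 2.87-fold enrichment, a −log10 q of 1.38 and no fragment to spare. Of the 3 genes, 2 therefore rest on a peak that also names other genes, and the third on a peak at the threshold.

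Genes for protein import, also grouped by name, had 6 peaks, 5 of them within 10 kb. The peaks were at 4 of 19 genes (21.1%, 95% confidence interval 8.51 to 43.3), and the 19 include TIMMDC1 and TOMM34. All genes had a peak in 25.6% at any distance and in 12.1% within 10 kb, and both shares lie in that interval. TIMM17A, a component of the inner membrane channel that the RefSeq table lists as TIMM17B, was the gene whose start site was covered by a peak, on chromosome 26 (1120534 to 1120745), with 10 fragments at the floor (95% interval 4.80 to 18.4). It was the single such case among the 78 peaks (1.28%, against 0.967% of all peaks). TOMM6, a small subunit of the outer membrane channel, had a pair of peaks on chromosome 26 separated by 1025 bp. The peak from 4976645 to 4976809, at 8285 bp, had 14 fragments, or 5.42-fold enrichment at a −log10 q of 5.02, and the peak from 4975506 to 4975619, at 9475 bp, had 11 fragments at the floor. TOMM7, another small subunit, had a peak at 7411 bp with 10 fragments. TIMM9, a chaperone of the intermembrane space, had peaks at 8415 and 11177 bp with pileups of 7 and 8.

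**Figure D4:**
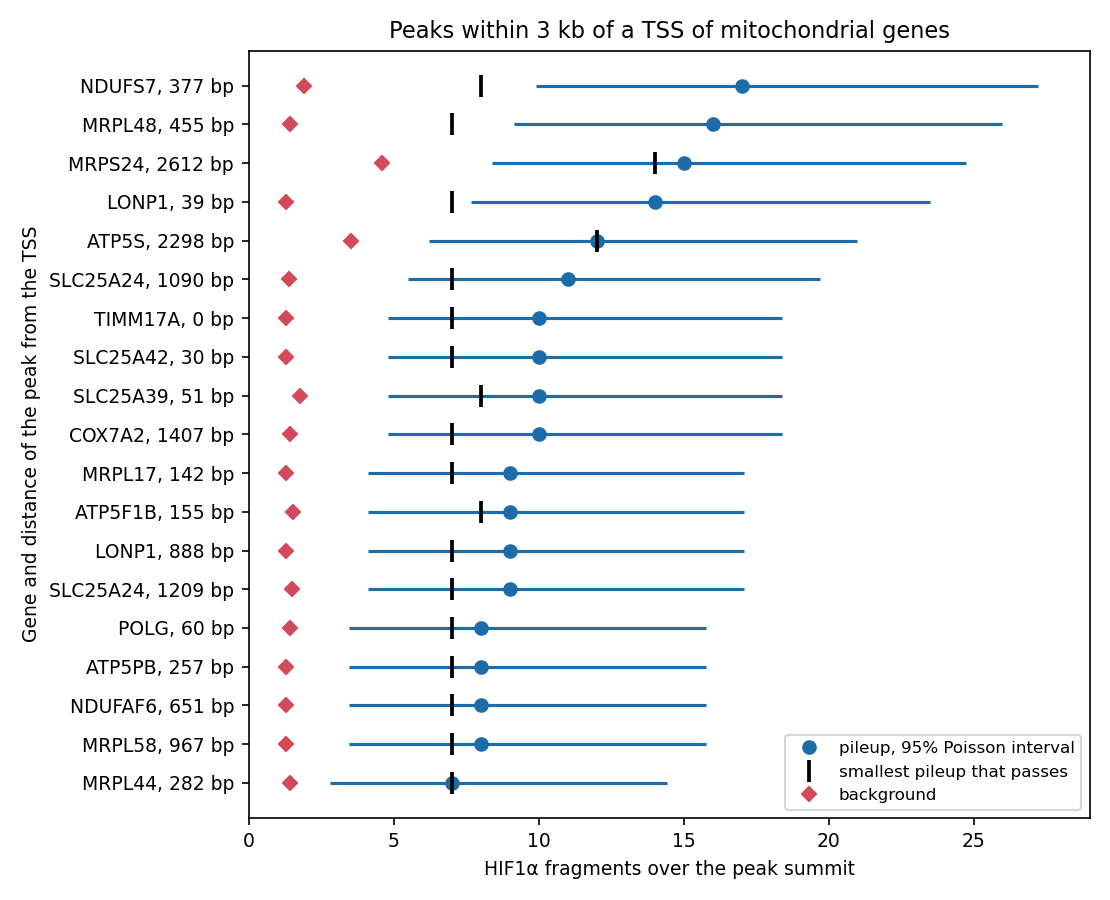
HIF1α fragments over the summit (x axis) of the 19 peaks within 3 kb of a TSS, named by gene and distance (y axis), with points for the pileup, bars for its 95% Poisson interval, black ticks for the smallest pileup that passes at the same background and red diamonds for the background. NDUFS7, MRPL48 and LONP1 have the widest margins over the tick, and the points of ATP5S and MRPL44 lie on it.

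Mitochondrial ribosomal proteins made up the largest group, with 25 peaks at 19 of 73 genes (26.0%, 95% confidence interval 17.3 to 37.1, against 25.6% of all genes). The large subunit had peaks at 12 of 46 genes and the small subunit at 7 of 27. Within 3 kb there were peaks at 5 genes (6.85%, against 5.62%). MRPL48 had the strongest of these, on chromosome 1 (196150859 to 196150998) at 455 bp, with 16 fragments (95% interval 9.15 to 26.0) over 1.41 expected from background, or 7.04-fold enrichment at a −log10 q of 8.23. Its neighbours in GRCg7b are RAB6A and COA4, an assembly factor of complex IV, which was nearest to no listed peak, whereas RAB6A had a peak of 9 fragments at 257 bp from its own TSS.

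The other proximal peaks of this group were weak. MRPL17 had 9 fragments at 142 bp (chromosome Z, 9298888 to 9299009) and MRPL58, which releases stalled ribosomes, 8 fragments at 967 bp (chromosome 18, 10612896 to 10613099), both at the floor. MRPL44 had 7 fragments at 282 bp (chromosome 9, 9611355 to 9611534) with no fragment to spare. The peak of MRPS24 on chromosome 22 (21878 to 22001), at 2612 bp, had 15 fragments over 4.60 expected from background, the highest of the 78, and 2.86-fold enrichment, the lowest.

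The strongest of the 78 complexes was distal to MRPL14, which encodes a protein of the large subunit. On chromosome 3 (30509607 to 30509753), at 8972 bp from the TSS, it had 22 fragments at the floor, 10.0-fold enrichment (95% interval 6.44 to 14.9) and a −log10 q of 15.7, which ranked 107 of 8375 by −log10 q and 31 by fold enrichment. A peak from 30508473 to 30508589, 1017 bp away and on the same side of the TSS, had 12 fragments. The adjacent gene TMEM63B had its own peak over a TSS, with 8 fragments, on the opposite side of MRPL14. That peak also carried the symbol gga-mir-4732. The other neighbour of MRPL14 in GRCg7b is LOC101750125, a gene without a name. MRPS6, a protein of the small subunit, had peaks at 6311 and 23335 bp on the same side of its TSS, on chromosome 1 (106983682 to 106983878) with 12 fragments and from 106966649 to 106966854 with 8 fragments, both at the floor. MRPS17 had a peak of 11 fragments at 5594 bp that also carried NIPSNAP2.

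The remaining ribosomal peaks had pileups of 7 to 14. MRPL3, MRPL21, MRPL39 and MRPS22 had a peak each at 3479 to 7217 bp. The peaks of MRPL13, MRPL22, MRPL23, MRPL32, MRPS5, MRPS18A and MRPS30 lay at 15910 bp or more. MRPS30 had 3, on both sides of the TSS on chromosome Z, at 15910, 111690 and 192798 bp, with pileups of 7, 10 and 8. The peak named MRPS18A on chromosome 3 (30879196 to 30879355), at 23110 bp from that gene with 10 fragments and 3.52-fold enrichment, lay in a region with VEGFA, the angiogenic growth factor and classical HIF target, which is the gene next to MRPS18A. This peak was 82624 bp from the VEGFA start site. VEGFA was itself the nearest gene of 3 listed peaks at 4963, 32018 and 94306 bp, with pileups of 10, 9 and 7. Which gene, if any, each complex acts on was not measured.

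SLC25 carriers, which move metabolites and nucleotides across the inner membrane, had 14 peaks at 9 of 36 genes (25.0%, against 25.6% of all genes). Within 3 kb there were peaks at 3 genes (8.33%, Wilson confidence interval 2.87 to 21.8, against 5.62% of all genes). That interval contains the share of all genes. SLC25A42, the coenzyme A carrier, had a peak on chromosome 28 (3750648 to 3750761) at 30 bp with 10 fragments at the floor. SLC25A39, which is needed for the import of glutathione, had a peak on chromosome 27 (5403474 to 5403633) at 51 bp, with the same pileup over 1.77 expected from background and 3.97-fold enrichment. SLC25A24, an ATP-magnesium and phosphate carrier, had peaks on chromosome 8 (1604000 to 1604136) and from 1572477 to 1572705, at 1090 and 1209 bp from 2 different transcripts, with pileups of 11 and 9. Both also carried the symbol FAM102B, the adjacent gene.

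Among distal carrier peaks, SLC25A4, the ADP/ATP carrier, had peaks on either side of its TSS on chromosome 4, at 7434 and 12381 bp with pileups of 10 and 9. SLC25A13, the aspartate and glutamate carrier, had a peak of 11 fragments at 12472 bp on chromosome 2 (24234164 to 24234292). SLC25A36, a pyrimidine nucleotide carrier, also had a peak of 11 fragments, at 36760 bp on chromosome 9 (6911776 to 6911949). Both were at the floor. SLC25A21, SLC25A26 and SLC25A33 had 2 peaks each at 3427 to 94137 bp with pileups of 7 to 10, and those of SLC25A33 also carried PIK3CD.

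Among genes that shape and maintain mitochondria, POLG had a proximal complex. POLG, the catalytic subunit of the mitochondrial DNA polymerase, had a peak on chromosome 10 (13384050 to 13384160) at 60 bp with 8 fragments, 3.73-fold enrichment and 1 fragment to spare. It was the single gene with a peak among the 5 for mitochondrial DNA maintenance and transcription in the table, which include TFAM. The fusion genes MFN1 and MFN2 had peaks at 5982 and 7928 bp with pileups of 8 and 10, the latter shared with MIIP, and MTFR2, a fission regulator, had 7 fragments at 3021 bp. OPA1 and DNM1L were nearest to no listed peak. MCUB, an inhibitory paralog of the calcium uniporter, had 8 fragments at 5051 bp, and MCU itself 9 fragments at 32791 bp in a peak shared with OIT3.

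CHCHD4, an oxidoreductase that imports proteins into the intermembrane space, had a peak on chromosome 12 (11158260 to 11158393) at 17004 bp, with 11 fragments, or 4.97-fold enrichment at a −log10 q of 3.57. CHCHD3, a component of the cristae junctions, had 3 peaks on chromosome 1 on the same side of the TSS, at 69712, 119274 and 123564 bp, with pileups of 8, 12 and 7. The peak of 12 fragments, from 2715487 to 2715676, had 5.01-fold enrichment. PPARGC1A, a coactivator that drives the formation of mitochondria, had 3 peaks on chromosome 4, at 17543 bp from a TSS of the gene and at 92411 and 120231 bp from another, with pileups of 10, 9 and 9. No peak of these 3 genes lay within 10 kb, where 12.1% of all genes had a peak. At any distance, 2 of 8 CHCHD genes (25.0%) and 1 of 2 PPARGC1 genes (50.0%) had a peak, against 25.6% of all genes.

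Where 2 or more peaks were assigned to the same transcript, their distances fixed the position of its start site, and this was possible for 14 genes. Peaks lay on both sides of the TSS at 4 of them, LONP1, SLC25A4, MRPS5 and MRPS30, and on a single side at the other 10. The same split was not counted over all genes with several peaks, so these counts have no background beside them. MRPL14, TOMM6 and LONP1 had peaks about 1 kb apart, at gaps of 1017, 1025 and 926 bp.

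**Figure D5:**
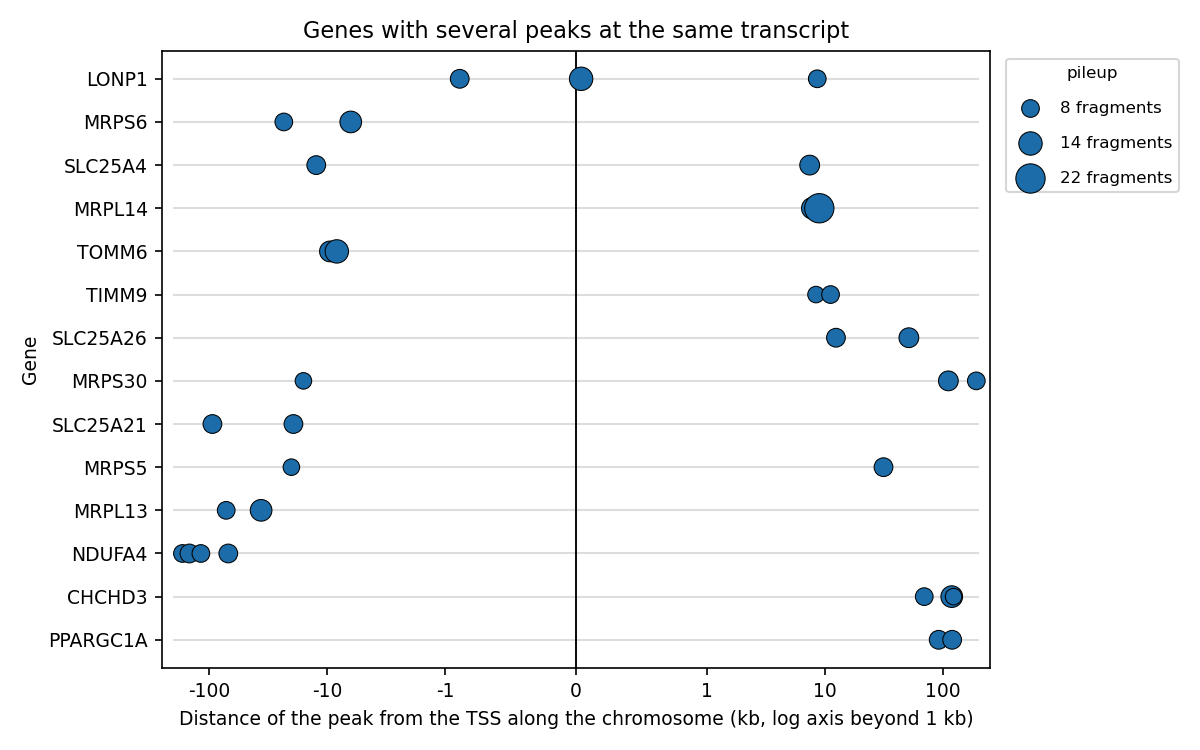
Position of the peaks of 14 genes with several peaks at the same transcript, as distance from the TSS along the chromosome (x axis, kb, linear within 1 kb and log beyond it, negative towards lower coordinates), with the area of each circle in proportion to the pileup. LONP1 is the gene with peaks within 1 kb of the TSS, and those of NDUFA4 and CHCHD3 lie at 69039 bp or more. The peak of PPARGC1A at its other transcript is not drawn.

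Other mitochondrial genes were examined through 8 lists. In the union of these lists without the families above, 129 of 146 genes were in the gene table. Of these, 30 were nearest to a peak (23.3%, 95% confidence interval 16.8 to 31.3, against 25.6% of all genes), 20 had a peak within 10 kb and 10 within 3 kb (7.75%, 95% confidence interval 4.26 to 13.7, against 5.62%). These shares are near those of all genes. By list, and to be read against the same 5.62%, peaks within 3 kb were found at 1 of 26 genes for the TCA cycle and pyruvate, 3 of 18 for coenzyme Q and heme, 1 of 12 for fatty acid oxidation, 2 of 13 for mitochondrial DNA expression, 2 of 13 for outer membrane channels and antioxidants, 0 of 22 for translation factors and tRNA synthetases, and 0 of 19 for dynamics and quality control. The strongest peak of these lists by −log10 q and by fold enrichment was at COQ8B, a kinase-like protein needed for coenzyme Q synthesis. It lay on chromosome 3 (12587658 to 12588258) at 99 bp (the RefSeq table names the gene COQ8A), with 35 fragments (95% interval 24.4 to 48.7), or 10.4-fold enrichment at a −log10 q of 23.6. ETFA, of the fatty acid oxidation list, had a distal peak at 29505 bp with 36 fragments over 4.95 expected from background. That gave 6.22-fold enrichment at a −log10 q of 14.9. ACAA2, a thiolase of fatty acid oxidation, had 23 fragments and 7.69-fold enrichment at 2450 bp. SUCLG2, a subunit of succinyl-CoA ligase, had a peak of 11 fragments over the TSS. SIRT5, a mitochondrial deacylase, had peaks of 10 and 11 fragments at 139 and 2206 bp. VDAC3, ESRRB, ESRRG, COQ3 and PDSS2 had proximal peaks with pileups of 7 to 10.

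A list of 15 mitochondrial genes linked to HIF in the mammalian literature, 14 of them in the gene table, had peaks at 5 genes, LONP1, BNIP3L, CHCHD4, PPARGC1A and FUNDC1, and within 3 kb at LONP1 and BNIP3L. These were 35.7% (95% confidence interval 16.3 to 61.2) against 25.6% of all genes, and 14.3% (4.01 to 39.9) against 5.62%, and both intervals contain the share of all genes. PDK1, BNIP3 and TFAM, also of this list, matched the symbol of no listed peak. BNIP3L had a peak over the TSS with 14 fragments (95% interval 7.65 to 23.5), the same number of fragments as at LONP1, over a background of 2.75 rather than 1.30 fragments, which gave 4.00-fold enrichment against 6.53. The −log10 q was 2.99 at BNIP3L and 6.70 at LONP1. The interval of the fold enrichment at LONP1, 3.77 to 10.7, contains 4.00, but it takes the background as known. A difference in strength between the 2 start sites was not tested.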

How the data were processed

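CUT&RUN was performed for HIF1α and IgG in DMOG-treated primary chick lens cells, with 2 libraries for each antibody. The authors trimmed the reads (Trimmomatic), aligned them to galGal6 (Ensembl release 96, Bowtie2), kept fragments under 120 bp (SAMtools), removed mitochondrial and low-complexity reads, pooled the libraries of an antibody and called narrow peaks with MACS2 at a q-value of 0.05. Tool versions were not given in the sources used here. The authors deposited a list of 8375 peaks with the pileup, a coverage signal in fragments, the fold enrichment, a ratio to background, the −log10 p and −log10 q, and the nearest TSS with its gene symbols. Pooling means that replicates cannot be compared and that peaks called in 1 library are not separable from peaks called in both. Removing mitochondrial reads leaves binding to mitochondrial DNA out of view. A nearest TSS is an annotation by distance, not a measured target.

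Member peaks were found by the letters of their gene symbols. The members and lists were chosen with earlier results of these data known. The background was computed as the pileup plus 1 over the fold enrichment, minus 1, and with it the Poisson p of each member peak was recomputed to within 1.51e-05 of the deposited −log10 p. Intervals of pileups are exact 95% Poisson intervals and those of shares are Wilson intervals, and both cover counting error alone. Intervals of fold enrichment are those of the pileup over a background taken as known. The intervals of medians rest on order statistics. Gene families were counted in the RefSeq table of the GRCg7b assembly, without 13 genes of mitochondrial DNA and with 14344 named protein-coding genes left. All 56 member genes matched, 2 of them as synonyms, ATP5F1B under ATP5B and TIMM17A under TIMM17B. A gene was counted as nearest to no peak when no symbol in the peak list matched its name or a synonym. A gene listed there under another name would be missed. Of the 8375 peaks, 5828 carried the symbol of a named protein-coding gene. The coordinates of that table were used only to order genes along a chromosome and name neighbours, and no distance was taken from them. Named genes were those with a peak within 3 kb, the 10 with the highest −log10 q, the 5 with the highest fold enrichment and those with 3 or more peaks, and the other members were added for completeness. No test was run, since a single pooled value per peak leaves no residual error. Alternatives were thresholds of −log10 q and fold enrichment, other distances, peaks with 1 symbol, leaving out high background and merging within 1 kb. Leaving out symbols of no mitochondrial gene was another, and it changed nothing since none was present. Promoter motifs and exon or intron positions were not analysed here. Python 3.11.15, pandas 2.3.3, numpy 2.4.6, scipy 1.17.1 and matplotlib 3.10.9 were used, and the counting functions were tested on simulated data.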

Additional observations from a re-analysis of the deposited data

How the results depend on the processing

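Stricter peaks lowered the counts. With a −log10 q of at least 2 there were 45 peaks at 37 genes, a median fold enrichment of 4.56 and 10 genes with a peak within 3 kb. With at least 3 there were 20 peaks at 18 genes, a median of 5.22 and 6 genes within 3 kb. Fewer and higher peaks are what a stricter threshold keeps by construction. Shares of all genes were not computed under stricter settings, so the gene counts there have no background beside them. The share within 3 kb was 26.7% and 30.0%, against 13.9% and 14.8% of all peaks at the same thresholds. A distance of 10 kb instead of 3 kb gave 48.7% of peaks, against 30.8% of all peaks. It gave 33 genes, or 12.7% against 12.1% of all genes. In the other 30 combinations of result and setting, counts stayed within 1.5 times the value reported, and shares and medians moved by less than its counting interval. Among them, leaving out symbols of no mitochondrial gene could not move any value, since no such symbol was present. The 30 also include leaving out the 13 peaks with no fragment to spare, which was chosen after seeing the data. It left 65 peaks at 50 genes, with 26.2% of the peaks within 3 kb, against 13.2% of all peaks so filtered. No paired analysis was possible because peaks were called on pooled libraries and the list has no column for a replicate. For the same reason no library could be left out. The planned motif search with its alternative was not run, as promoter sequences were not used here. With a median of 9 fragments, the counting intervals of the pileups of the 78 peaks overlapped, and differences in strength between them were not tested.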

Other observations

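Several peaks were named for a mitochondrial gene that has a gene of another kind beside it. In the GRCg7b gene order, neighbours of member genes included the developmental regulators PAX9 (beside SLC25A21), FOXL2 (beside MRPS22) and FGF10 (beside MRPS30), and the secreted factors IGF2 (beside MRPL23) and IL6 (beside TOMM7). The peaks assigned to SLC25A21 were at 19336 and 94137 bp, that of MRPL23 at 93357 bp and that of MRPS22 at 6169 bp. Other neighbours were themselves mitochondrial. MRPL44 is beside MFF, a fission factor, and MRPS6 beside ATP5O, an ATP synthase subunit. The neighbours named here were picked by hand, and no share over all members was counted. Many other neighbours were of other kinds, such as COPB2, also beside MRPS22. Whether a peak lay on the side of the named neighbour was not examined here. The assignment of these peaks to either neighbour was not tested.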
